A study of Mus musculus with 5 samples.

Results

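The genes described are *Cish*, *Socs1*, *Socs2*, *Socs3*, *Pim1* and *Pim2*, 6 feedback genes of cytokine signalling that were chosen by name. Each has 1 row in a deposited table of 11608 genes, and the chromosome and coordinates of each row fit the locus of the gene in mm9. RNA Polymerase II ChIP-Seq was performed on T helper cells differentiated in vitro under Th2 conditions, to ask which genes depend on PARP-14 and on ADP-ribosyltransferase activity. PARP-14 is a poly ADP-ribose polymerase family member that works with STAT6, and PJ34 inhibits the catalytic activity of PARP family enzymes. *Parp14*+/+ and *Parp14*-/- cells were each studied untreated and with PJ34, which makes 4 conditions with 1 library each. All were spleen cells of young adult C57BL/6 mice, purified as naive CD4+CD62L+ T cells. They were activated through CD3 and CD28 with 10 ng/ml IL-4 and an antibody to IFN-γ, and after 3 d were expanded for 4 d in IL-2 at 50 U/ml and IL-4 at 10 ng/ml. By the labels PJ34 was used at 10 µM on differentiated cells. The methods of the study give a lower dose and describe culture in its presence, so the timing and dose are uncertain. The number of mice behind each library is not given in the sources used here. The antibody recognised RNA Polymerase II phosphorylated on serine 2 of its C-terminal repeats, the form found on elongating polymerase toward the end of genes.

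Cytokines such as IL-2 and IL-4 activate JAK kinases, which phosphorylate STAT5 and STAT6, and the STAT proteins switch on target genes. CIS (encoded by *Cish*), SOCS1, SOCS2 and SOCS3 are among these targets and feed back on the pathway. Each has an SH2 domain that binds phosphorylated receptors or kinases and a SOCS box that recruits a ubiquitin ligase, and SOCS1 and SOCS3 also inhibit JAK kinases directly. PIM1 and PIM2 are serine/threonine kinases without a known regulatory subunit, so that their activity follows their amount, and they favour survival and growth of activated T cells.

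The windows upstream of the genes are shown because STAT proteins bind the palindrome TTCNNNGAA and a longer one with 4 bases between TTC and GAA, the form that STAT6 favours. Both were searched from 1000 bases before to 100 bases after the start of the gene as the table gives it, and 1 search of a palindrome covers both strands. The sequences are from the NCBIM37 genome, the assembly of mm9, read 5′ to 3′ on the strand of the gene, with the matches in capitals.

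Cish, chr9:107198984-107199013, plus strand: ccagttTTCCTGGAAagTTCTTGGAAatct
Socs2, chr10:94879516-94879575, minus strand: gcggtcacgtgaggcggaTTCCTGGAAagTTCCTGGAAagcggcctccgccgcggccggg
Socs3, chr11:117830527-117830586, minus strand: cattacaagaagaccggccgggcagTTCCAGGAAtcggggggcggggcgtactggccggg
Socs1, chr16:10786180-10786279, minus strand: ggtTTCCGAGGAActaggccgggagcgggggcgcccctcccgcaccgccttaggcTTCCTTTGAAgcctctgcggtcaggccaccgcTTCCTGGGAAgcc
Pim2, chrX:7455132-7455191, plus strand: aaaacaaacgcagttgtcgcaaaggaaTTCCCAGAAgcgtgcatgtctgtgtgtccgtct

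*Cish* and *Socs2* both carried a tandem pair of TTCNNNGAA matches whose starts lay 11 bases apart. In *Cish* the pair began 30 bases before the start of the gene, in the 5′ untranslated region of 1 annotated transcript, and in *Socs2* it began 102 bases before the start. Over the 20 bases that span the pair, *Socs2* and *Cish* were identical at 19, with C15T as the difference (*Socs2* base first, counted from the 5′ end of the pair). A pair of TTCNNNGAA matches starting within 30 bases of each other was found in 32 of 11604 promoters (0.276%). *Socs1* differed in kind, with matches to the longer palindrome at 647, 595 and 563 bases and a TTCNNNGAA match at 453 bases before its start. *Cish* and *Socs1* each held 4 matches to either palindrome, a number reached by 50 promoters (0.431%). The other 2 of *Cish* lay 889 bases before the start and at base 76 of the gene. *Socs3* had 2 matches, at 358 and 85 bases before its start, and *Pim2* had 2, at 545 and 273 bases. No match was found in the window of *Pim1*. A match to either palindrome was found in 43.6% of all promoters and 2 or more matches in 11.5%. Each match at the 6 genes lay under an enriched interval in all 4 libraries. The intervals over the gene starts reached 944 bp or more upstream, over most of the window, so this was close to given. It says nothing on STAT binding.

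The measure is the average peak height, the highest pile-up of overlapping fragments in an active region, with the mean taken where a gene has several active regions. An active region is a stretch of overlapping enriched intervals, merged across libraries. The height is a maximum and not a sum along the gene, so it does not add up with gene length. The length of the active region and the number of regions averaged can still affect it. The authors had reduced the libraries to the same number of alignments. The intervals given with heights are 95% exact Poisson intervals and those given with ratios are 95% exact binomial (Clopper-Pearson) intervals. Both take heights summed over active regions as counts and cover counting error only, and with 1 library per condition no test between conditions was run. Because a height is a maximum over positions and not a plain count, the true coverage of these intervals can differ from 95%. Bounds close to 1 are to be read with that limit. Enriched intervals numbered from 8841 in *Parp14*-/- + PJ34 to 12014 in *Parp14*+/+ + PJ34, with a median height of 9 in each library. The labels were checked on *Parp14*, where intervals covered at least 20834 bp of the gene in each *Parp14*+/+ library and at most 3286 bp in each *Parp14*-/- library. In peak height *Parp14* differed less, with 8 and 11 in the *Parp14*+/+ libraries and 6.67 in both *Parp14*-/- libraries. All 6 CD4 T cell markers looked at had an interval in *Parp14*+/+, and 5 did with PJ34. In *Parp14*-/- 4 had one, and 5 with PJ34. *Cd4* lacked one in *Parp14*-/-, and *Cd3g* had one in *Parp14*+/+ alone. The median *Parp14*+/+ to *Parp14*-/- ratio of the 6 was 1.06 untreated and 1.48 with PJ34, against 1.0 and 1.14 over all genes. The part of this in the results was not tested. *Cd8a* had no interval, and of 5 B cell markers *Cd79a* alone had one, with the same values as its neighbour *Rps19*. Of 2 myeloid markers with a row, *Itgam* had no interval and *Csf1r* had one in 3 libraries, with heights of 8 and 8.5 in *Parp14*+/+ cells without and with PJ34 and of 6 and 5.5 in *Parp14*-/- cells. The ratio of *Csf1r* with PJ34, 1.55, passed the ratio thresholds, and its part in the results was not tested. Chromatin from a pool of cells cannot tell fewer transcribing cells from less polymerase per cell.

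All 6 genes had an enriched interval in all 4 libraries, as did 4679 of the 8551 genes with an interval in any of them. *Cish* (gene identifier 12700, chromosome 9, 107199020 to 107204292, plus strand) encodes CIS, a STAT5 target that dampens IL-2 receptor signalling. Its average peak height in *Parp14*+/+ cells was 87 (69.7 to 107) untreated and 62 (47.5 to 79.5) with PJ34. In *Parp14*-/- cells it was 92 (74.2 to 113) untreated and 89 (71.5 to 110) with PJ34. The *Parp14*+/+ + PJ34 library was the low one and the other 3 lay close together. Even there the height exceeded that of 99.2% of the 8551 genes. The active region is 63749 bp long and also holds *Hemk1* and 6430571L13Rik, which have the same values. The highest point lay past the 3′ end of *Cish* by 1180 bp in *Parp14*+/+ and, in *Parp14*-/- cells, by 1500 bp untreated and 1308 bp with PJ34. In *Parp14*+/+ + PJ34 it lay within the gene, 1524 bp after its start, so the low value was also read at another place.

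*Pim1* (identifier 18712, chromosome 17, 29627757 to 29632401, plus strand) encodes a kinase induced by STAT5. *Parp14*+/+ cells had an average peak height of 66 (51.0 to 84.0) untreated and 75 (59.0 to 94.0) with PJ34. *Parp14*-/- cells had 92 (74.2 to 113) untreated and 93 (75.1 to 114) with PJ34. Both libraries without PARP-14 were higher than both with it. Its active region held no other gene of the table, and the highest point lay between 943 and 1455 bp past the 3′ end in all 4 libraries. The 4 heights of *Pim1* were thus all read past its 3′ end, though not at the same base.

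*Socs1* (identifier 12703, chromosome 16, 10783901 to 10785629, minus strand) encodes the JAK inhibitor that restrains IL-4 and IFN-γ signalling. Its average peak height in *Parp14*+/+ cells was 53 (39.7 to 69.3) untreated and 52 (38.8 to 68.2) with PJ34. In *Parp14*-/- cells it was 63 (48.4 to 80.6) untreated and 62 (47.5 to 79.5) with PJ34. The heights paired by genotype and hardly moved with PJ34. The protamine and transition protein genes *Prm3* and *Tnp2*, which are known for sperm chromatin, overlap the active region and have the same values, as does *Prm2* beside it. The highest point lay outside them, between 253 and 1725 bp past the 3′ end of *Socs1*. In *Parp14*+/+ it lay 253 bp past that end untreated and 1245 bp with PJ34. In *Parp14*-/- it lay 765 bp past it untreated and 1725 bp with PJ34.

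*Socs3* (identifier 12702, chromosome 11, 117827393 to 117830476, minus strand) encodes the inhibitor best known for gp130 cytokines. *Parp14*+/+ cells had an average peak height of 27 (17.8 to 39.3) untreated and 28 (18.6 to 40.5) with PJ34. *Parp14*-/- cells had 36 (25.2 to 49.8) untreated and 41 (29.4 to 55.6) with PJ34. Again both *Parp14*-/- libraries were the high ones. No other gene of the table lies in its active region. The highest point lay 257 to 417 bp past the 3′ end in 3 libraries and 12 bp after the start in *Parp14*-/-. The untreated *Parp14*-/- height was thus read at another place.

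*Pim2* (identifier 18715, chromosome X, 7455432 to 7460558, plus strand) encodes the second PIM kinase. Its average peak height in *Parp14*+/+ cells was 17 (9.90 to 27.2) untreated and 16 (9.15 to 26.0) with PJ34. In *Parp14*-/- cells it was 20 (12.2 to 30.9) untreated and 21 (13.0 to 32.1) with PJ34. The genotypes did not overlap, but the heights were 16 to 21 and the counting intervals overlapped widely. The region also touches *Otud5* and *Slc35a2*. The highest point lay 24 bp and 104 bp before the start of *Pim2* in the untreated *Parp14*+/+ and *Parp14*-/- libraries. In both PJ34 libraries it lay in *Slc35a2*, 946 and 978 bp past the end of *Pim2*, so the value there is that of the neighbouring gene.

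*Socs2* (identifier 216233, chromosome 10, 94874676 to 94879455, minus strand) encodes a regulator best known for growth hormone signalling. *Parp14*+/+ cells had an average peak height over 2 active regions of 15.0 (10.1 to 21.4) untreated and 14.5 (9.71 to 20.8) with PJ34. *Parp14*-/- cells had 12.5 (8.09 to 18.5) untreated and 14.5 (9.71 to 20.8) with PJ34. It was the lowest of the 6 genes in every library, and no library stood apart. The interval over the gene had a highest point of 16, 11, 13 and 12 in the same order, and the interval at its 3′ end had 14, 18, 12 and 17. The second was thus the taller one in both PJ34 libraries and the lower one in both untreated ones.

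**Figure D1:**
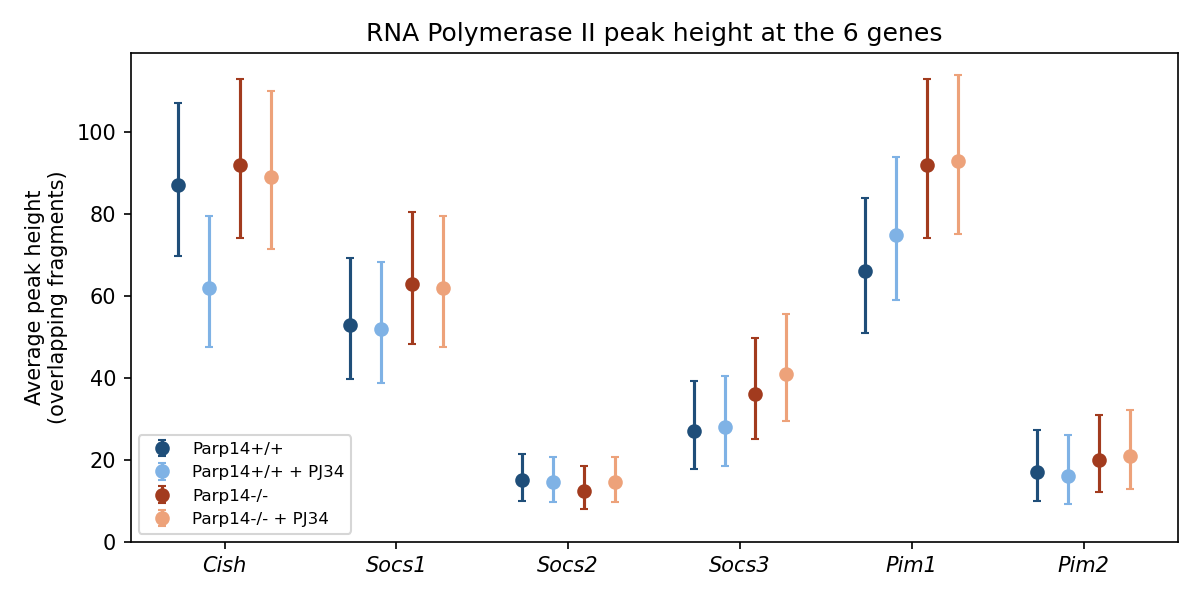
Average peak height (overlapping fragments, vertical axis from 0) of the 6 genes in the 4 libraries. Points are single libraries and bars are 95% exact Poisson intervals of counting error. *Cish* and *Pim1* reach 92 and 93, *Socs2* stays between 12.5 and 15, and at 5 genes both *Parp14*-/- points lie above both *Parp14*+/+ points.

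*Cish* and *Pim1* headed the order in every library. In *Parp14*-/- both stood at 92. *Socs1*, *Socs3*, *Pim2* and *Socs2* followed in this order throughout. The step from *Socs1* to *Socs3* was 1.96-fold (1.21 to 3.25) in *Parp14*+/+ and 1.86-fold (1.15 to 3.05) with PJ34, beyond counting error. In *Parp14*-/- it was 1.75-fold (1.14 to 2.71) and with PJ34 1.51-fold (1.00 to 2.30). *Cish* and *Pim1* did not differ beyond counting error in any library, nor did *Pim2* and *Socs2*. *Socs3* was 1.8-fold (1.01 to 3.28) higher than *Pim2* in *Parp14*-/- and 1.95-fold (1.13 to 3.48) in *Parp14*-/- + PJ34, whereas the intervals held 1 in both *Parp14*+/+ libraries. *Pim1* exceeded *Socs1* 1.46-fold (1.05 to 2.05) in *Parp14*-/-, and *Cish* exceeded it 1.44-fold (1.03 to 2.02) in *Parp14*-/- + PJ34. In *Parp14*+/+ the step from *Pim1* to *Socs1*, and with PJ34 the step from *Cish* to *Socs1*, had intervals that held 1. *Cish*, *Pim1*, *Socs1* and *Socs3* lay above at least 91.4% of the 8551 genes in each library, and *Socs2* above 67.6% to 78.1%. Untreated, *Pim2* lay above 80.2% in *Parp14*+/+ and 84.9% in *Parp14*-/-. With PJ34 the *Pim2* values in this order and its steps are the height in *Slc35a2*, above 77.4% and 88.3% of genes.

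The first comparison asks what loss of PARP-14 did in untreated cells. The ratio thresholds are those of the study, which applied them to average peak values on another scale. Here they were applied to the deposited heights, so the calls are not those of the study. A gene was taken as past them when the ratio exceeded 1.4 or fell below 0.7. Ratios of 1.2 to 1.4 or 0.7 to 0.83 were also taken when either height exceeded 11, and an interval was required in the higher library. *Pim1* had a *Parp14*+/+ to *Parp14*-/- ratio of 0.717 (0.515 to 0.995), which is 1.39-fold higher without PARP-14. *Socs3* had a ratio of 0.75 (0.438 to 1.27), or 1.33-fold higher, read past the 3′ end in *Parp14*+/+ and near the start in *Parp14*-/-. *Socs2* went the other way with 1.2 (0.682 to 2.13), a value on the threshold itself. These 3 genes passed, where 33.0% of the 8551 genes did. *Pim1* alone had an interval that did not include 1, where 3.10% of genes did. These intervals narrow with height, and the median height of the 8551 genes was 9.25 in *Parp14*+/+ and 9 in *Parp14*-/-. Such shares of all genes, here and below, are thus not the shares among genes as tall as *Pim1* and *Cish*. *Socs1* at 0.841 (0.573 to 1.23), *Pim2* at 0.850 (0.418 to 1.71) and *Cish* at 0.946 (0.697 to 1.28) did not pass. The median of the 6 ratios was 0.846 and that of all genes 1.00.

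The second comparison asks the same in cells given PJ34 and shares no library with the first. *Socs3* had a *Parp14*+/+ + PJ34 to *Parp14*-/- + PJ34 ratio of 0.683 (0.407 to 1.13), *Cish* 0.697 (0.495 to 0.974), *Pim2* 0.762 (0.372 to 1.53) and *Pim1* 0.806 (0.587 to 1.11). These 4 genes passed the thresholds, all higher in *Parp14*-/- + PJ34, a direction taken by 8.64% of genes and with 36.4% passing in either direction. The value of *Pim2* is here the height in *Slc35a2*, and without it 3 genes passed. The interval of *Cish* did not include 1, where 3.48% of genes did, and those of the other 3 did. The *Cish* height was read within the gene in *Parp14*+/+ + PJ34 and past its 3′ end in *Parp14*-/- + PJ34. *Socs1* had 0.839 (0.569 to 1.23) and *Socs2* had 1.00 (0.577 to 1.73). The median over the 6 genes was 0.784. Over all genes it was 1.14, a shift of 0.19 on the log2 scale toward *Parp14*+/+ + PJ34. With libraries scaled to remove that shift, the ratios were 0.610 for *Socs3*, 0.622 for *Cish*, 0.680 for *Pim2*, 0.720 for *Pim1*, 0.749 for *Socs1* and 0.893 for *Socs2*, and 5 genes passed.

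**Figure D2:**
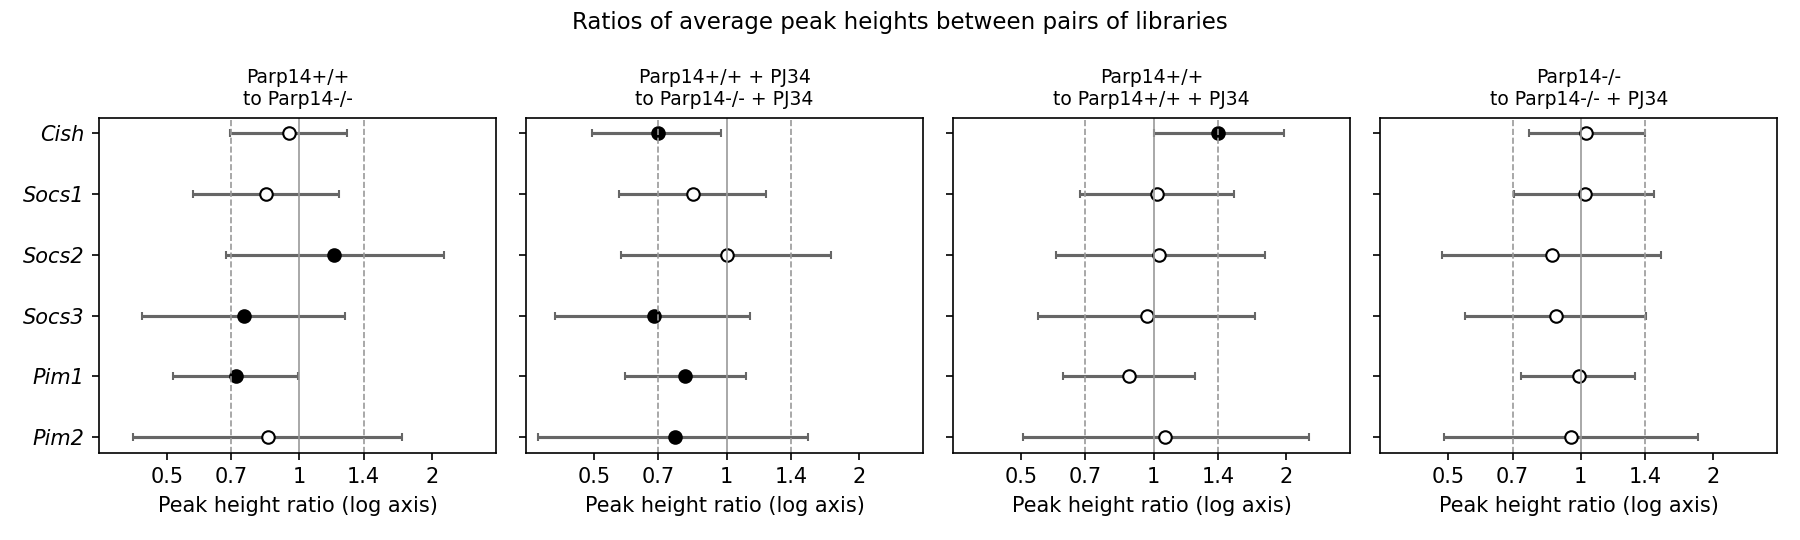
Ratio of average peak heights of the 6 genes in the 4 pairs of libraries (log axis). Bars are 95% exact binomial intervals of counting error, dashed lines mark 0.7 and 1.4, and filled points passed the thresholds. *Socs3* and *Pim1* are filled in both genotype pairs, *Cish* is filled at 0.697 and 1.4, and no point is filled between the *Parp14*-/- libraries.

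Set side by side, *Socs3* and *Pim1* passed toward *Parp14*-/- in both genotype pairs, where 3.19% of genes did. The *Socs3* heights of the untreated pair were read past the 3′ end and near the start, whereas those of *Pim1* were all read past the 3′ end. *Cish*, *Socs1*, *Socs3*, *Pim1* and *Pim2* had ratios below 1 in both pairs, where 15.3% of genes did. In these 5 genes both *Parp14*-/- libraries were also higher than both *Parp14*+/+ libraries, where 10.7% of genes were and 26.5% lay the opposite way. *Pim2* enters these counts, and the sums that follow, with the height in *Slc35a2* for the PJ34 libraries, and without it the counts are 4 genes. Summing the libraries of a genotype, with and without PJ34, gave 141 against 185 for *Pim1*, a ratio of 0.762 (0.608 to 0.954). The same sums gave 0.714 (0.496 to 1.02) for *Socs3*, 0.805 (0.493 to 1.30) for *Pim2*, 0.823 (0.658 to 1.03) for *Cish* and 0.840 (0.642 to 1.10) for *Socs1*. *Socs2* had 1.09 (0.742 to 1.61). The interval of *Pim1* alone left out 1, as did that of 2.08% of genes toward *Parp14*-/-. For the sums of the other genes a difference between the genotypes was not detectable at this depth.

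**Figure D3:**
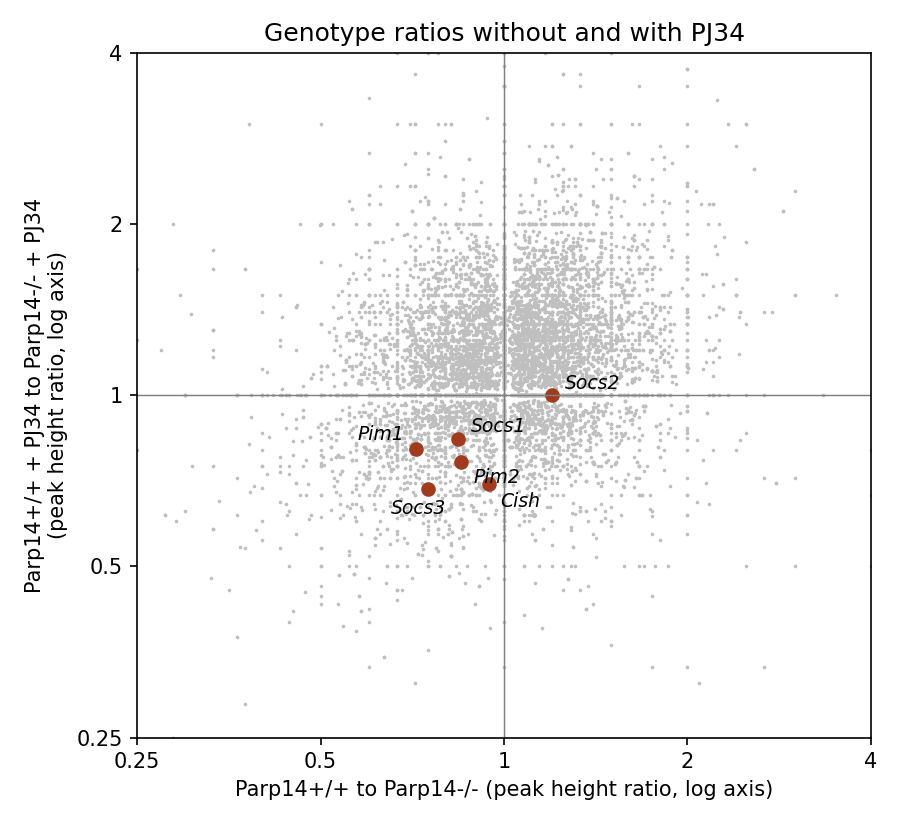
*Parp14*+/+ to *Parp14*-/- ratio without PJ34 (horizontal, log axis) against the ratio with PJ34 (vertical, log axis) of genes with an interval in any library, in grey, and of the 6 genes, in red. Points beyond 0.25 to 4 are not drawn. Of the 6 genes, 5 lie in the lower left corner, with ratios below 1 in both pairs, and *Socs2* lies at 1.2 and 1.0.

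PJ34 was compared within each genotype. Between *Parp14*+/+ and *Parp14*+/+ + PJ34, *Cish* had a ratio of 1.4 (1.00 to 1.98) and was the 1 gene of 6 past the thresholds, where 28.6% of all genes passed and 12.7% did so toward *Parp14*+/+. Its value lay above 1.2, the lower threshold that applies to genes as tall as *Cish*. Its interval left out 1, by a narrow margin, and those of 1.61% of genes left out 1. The *Cish* height was read past the 3′ end in *Parp14*+/+ and within the gene in *Parp14*+/+ + PJ34. The other ratios were 0.88 (0.622 to 1.24) for *Pim1*, 0.964 (0.547 to 1.70) for *Socs3*, 1.02 (0.682 to 1.52) for *Socs1*, 1.03 (0.6 to 1.79) for *Socs2* and 1.06 (0.505 to 2.25) for *Pim2*. Between *Parp14*-/- and *Parp14*-/- + PJ34 none of the 6 genes passed, where 26.8% of genes did, and none had an interval that left out 1, where 1.66% did. *Cish* had 1.03 (0.764 to 1.4), *Socs1* 1.02 (0.704 to 1.47), *Pim1* 0.989 (0.733 to 1.33), *Pim2* 0.952 (0.490 to 1.85), *Socs3* 0.878 (0.545 to 1.41) and *Socs2* 0.862 (0.484 to 1.52). In each genotype the *Pim2* ratio sets a height near the start of *Pim2* against one in *Slc35a2*. The ratio of *Cish* without to with PJ34 was thus 1.4 in the presence of PARP-14 and 1.03 in its absence, and these intervals overlap. The difference between the 2 effects was not tested. The *Cish* ratios of 1.4 and, between the genotypes with PJ34, of 0.697 both rest on the 1 height in *Parp14*+/+ + PJ34.

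The position of the intervals added a difference that height does not show. At *Socs1* the interval reached 16000 bp past the 3′ end in *Parp14*+/+ and 16600 bp in *Parp14*-/-. With PJ34 it reached 7600 bp and 6100 bp. In both genotypes the reach with PJ34 was below 50% of that without, which was so for 8.07% of the 2576 genes measured, and the opposite for 2.88% of 2400. At *Pim1* the reach was 5948 bp in *Parp14*+/+ and 9698 bp with PJ34, against 10448 bp in *Parp14*-/- and 9548 bp with PJ34. The library lowest in height was here also the shortest in reach. At *Cish* it was 39257 to 43157 bp, through both neighbouring genes, and at *Socs3* 2992 to 4042 bp. *Cish*, *Socs1*, *Socs3* and *Pim1* were covered along their whole length in all 4 libraries. *Socs2* was covered over 78.0% in *Parp14*+/+ and 71.7% with PJ34, and over 62.3% in *Parp14*-/- and 87.4% with PJ34. *Pim2* was covered over 85.4% in *Parp14*+/+, where the interval was broken, and wholly in the other 3 libraries. The highest point lay past the 3′ end at 4 of the 6 genes in *Parp14*+/+ and 5 with PJ34, and at 3 in *Parp14*-/- and 6 with PJ34. Over all genes with an interval this was so for 39.3%, 33.9%, 31.2% and 31.4% in the same order. The counts of the 6 genes with PJ34 include *Pim2*, whose highest point there lay in *Slc35a2*. The comparison of reach was chosen after the values had been seen.

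**Figure D4:**
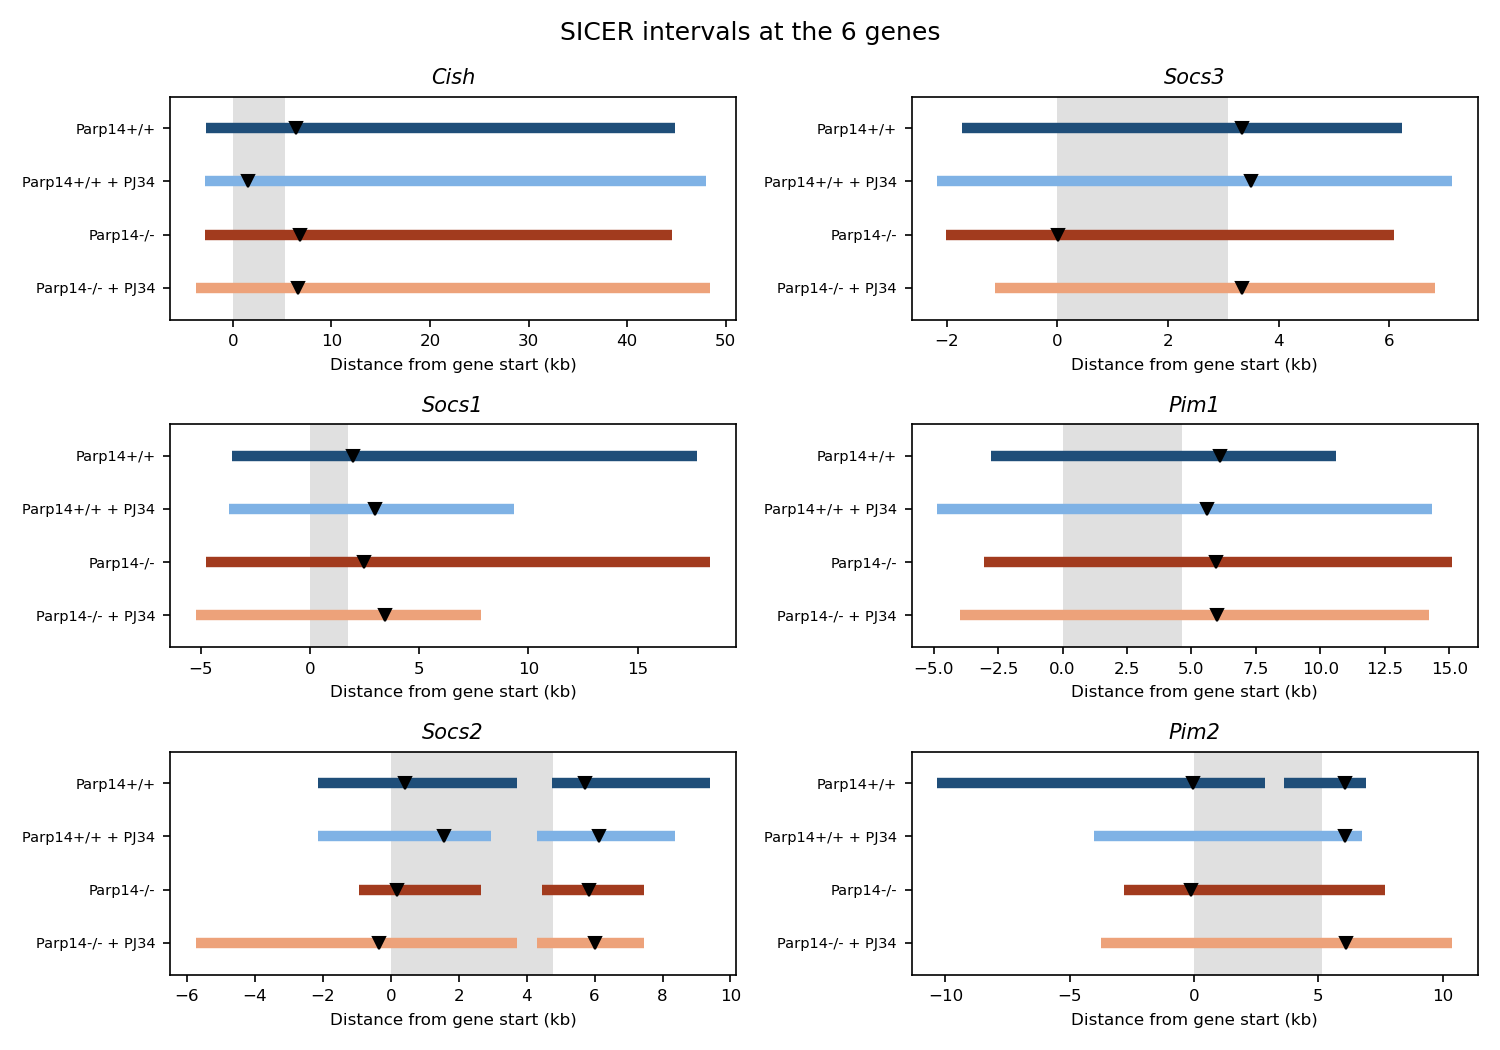
Enriched intervals (coloured bars) and their highest points (triangles) at the 6 genes in the 4 libraries, by distance from the start of the gene in kb along its own strand. Grey marks the gene. The *Socs1* bars end earlier in both PJ34 libraries, and the *Pim2* triangle lies near the start without PJ34 and past the gene with it.

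The other SOCS and Pim genes were few and low. No row of the table overlaps the locus of *Socs7*, and *Socs5* had no interval in these libraries. *Pim3*, the third PIM kinase, had heights of 10 and 14 in *Parp14*+/+ cells without and with PJ34, and of 17 and 12 in *Parp14*-/- cells. Its *Parp14*+/+ to *Parp14*-/- ratio of 0.588 passed, and its ratio with PJ34 was 1.17. *Socs4* had 1.13 in both genotype pairs and *Socs6* 1.25 and 1.4, and neither passed.

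Of the 15 genes listed as induced by STAT5 or STAT6, 9 passed toward *Parp14*-/- in untreated cells and 2 toward *Parp14*+/+, against 15.0% and 18.0% of all genes. The 9 were *Osm* (ratio 0.5), *Prdm1* (0.525), *Myc* (0.563), *Lta* (0.615) and 5 others, *Bcl6* (0.682) among them. Whether STAT5 or STAT6 induces or represses each listed gene in these cells, *Bcl6* included, was not tested. *Osm* and *Lta* encode cytokines, *Myc* a growth regulator and *Prdm1* the repressor Blimp-1. The value of *Lta* is shared with *Tnf* and *Ltb*. The median of the 15 was 0.825, near that of the 6 feedback genes. With PJ34, 2 of the 15 passed toward *Parp14*-/- + PJ34 and 4 toward *Parp14*+/+ + PJ34. Of all genes, 8.64% passed toward *Parp14*-/- + PJ34 and 36.4% in either direction, so most went toward *Parp14*+/+ + PJ34. The median of the 15 was 0.95, whereas that of the 6 genes was 0.784 and that of all genes 1.14. Of these 15, *Myc* (0.677) and *Lta* (0.562) were those that also passed toward the knockout with PJ34, as *Socs3* and *Pim1* did.

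Genes that act with SOCS or PIM proteins showed no common direction. The SOCS box recruits elongins B and C, cullin 5 and RNF7. Of their 4 genes *Rnf7* passed in untreated cells with a ratio of 2.11, and the median was 0.980. Of the 4 JAK kinases that SOCS proteins inhibit, *Tyk2* passed with 1.36 and *Jak2* with 0.764. *Jak2* was tall, with 107 and 106 in *Parp14*+/+ and 140 and 132 in *Parp14*-/- cells, without and with PJ34, and its ratio with PJ34 was 0.803. The values of *Jak2* are shared with *Insl6* and *Rln1*. Of 11 other inhibitors of the pathway, 4 passed toward *Parp14*+/+ and 1 toward *Parp14*-/-, with a median of 1.13. The 4 were the phosphatase genes *Ptpn11* (1.87) and *Ptpn6* (1.48) and the PIAS genes *Pias3* (1.55) and *Pias4* (1.44). Of 6 PIM substrate genes with an interval, *Cdkn1a* (1.8) and *Eif4b* (1.64) passed toward *Parp14*+/+, and the median was 1.04. Neither the 4 inhibitors nor these 2 substrate genes passed with PJ34, where *Cdkn1a* had 0.892 and *Eif4b* 0.923. The markers of Th2 cells had a median of 2.10 over 5 genes, with *Gata3*, *Il4*, *Il5* and *Il13* past the thresholds toward *Parp14*+/+. The Th1 markers *Ifng* and *Tbx21* had ratios of 1.38 and 1.08, and of 1.43 and 1.16 with PJ34, and *Ifng* passed toward *Parp14*+/+ in both pairs. The remaining Th2 marker, *Il4ra*, encodes the IL-4 receptor chain upstream of STAT6. It had heights of 132 and 110 in *Parp14*+/+ cells and 160 and 130 in *Parp14*-/- cells, without and with PJ34, and a ratio of 0.825, toward *Parp14*-/- as at *Socs3* and *Pim1*.

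**Figure D5:**
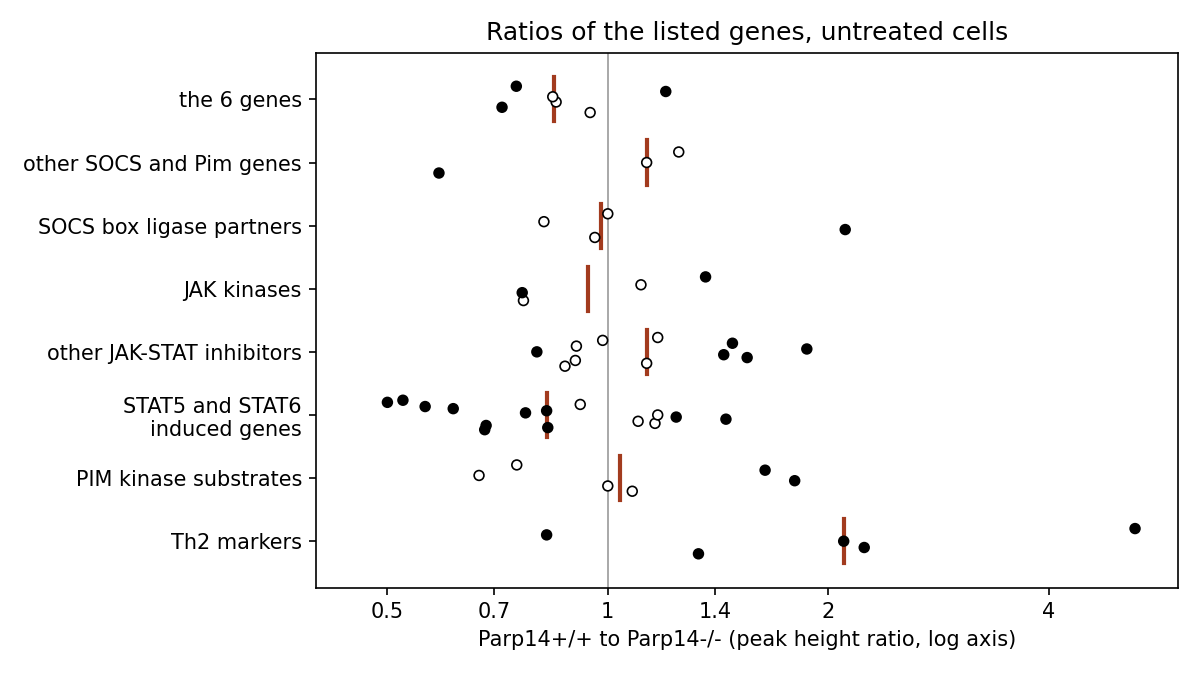
*Parp14*+/+ to *Parp14*-/- ratio of average peak height in untreated cells (log axis) for the 6 genes and for 7 lists. Each circle is a gene with an interval in any library, filled where it passed the thresholds, and red bars are list medians. The medians are 0.846 for the 6 genes, 0.825 for genes listed as induced by STAT5 or STAT6, 1.13 for other inhibitors and 2.10 for Th2 markers.

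The genes most like each of the 6 in pattern over the 4 libraries were found by the smallest root mean square difference of log2 heights, each gene centred on its own mean. Between 790 and 794 genes with at least 50 summed height and outside the active region were searched. Heights are given for *Parp14*+/+ cells without and with PJ34 and then for *Parp14*-/- cells likewise. Nearest to *Pim1* were *Adamtsl4* (28.5, 33, 40 and 41, difference 0.0123) and *Vmp1* (48.3, 54.7, 69 and 67, difference 0.0211). Nearest to *Socs1* were *Fancc* (24, 24.5, 28.5 and 28.5, difference 0.0237) and the ubiquitin gene *Ubb* (40, 41, 48 and 50, difference 0.0384). *Socs3* was nearest to the histone gene *Hist1h2ab* (difference 0.0658) and *Samd4* (0.0701), *Pim2* to *Amac1* (0.0351) and *Taf4b* (0.0357), and *Socs2* to *Cdk8* (0.0382) and Gm16382 (0.0387). *Cish* had the most distant neighbours, the antiproliferative gene *Btg1* (68, 57, 81 and 82, difference 0.0965) and *Gimap5* (22, 15.5, 28 and 25, difference 0.116). These likenesses rest on 4 values each.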

How the data were processed

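The authors mapped 36 nt reads to mm9, removed duplicates, reduced the libraries to equal numbers of alignments and called intervals with SICER (window 150 bp, fragment 150 bp, gap 450 bp) against an Input mixed from both genotypes. They deposited a signal, the average peak height per gene and library, and the intervals with their highest points. No Input value entered, and 8 columns of per-sample values of other libraries in the gene table were not used. Some labels of the table are shifted, so genes were named by label where it fit NCBIM37 coordinates (6724 rows) or by position (3643), and 1241 rows stayed unnamed. Ratios were taken without a pseudocount. The height limit of 11 is the median of 1003 heights of genes whose value in the study lies between 1.8 and 2.2, near its limit of 2. No p-value is given. The number of alignments was equal by construction, and intervals cover counting error only. Calls and intervals were run on simulated data only as a check of the code. How often calls near the ratio thresholds are false was not tested. The coverage of the intervals for real heights, which are maxima, was not tested either. The members, lists and rules were chosen with earlier results of these data known. Genes of the lists were named when past the thresholds in untreated cells, at most 4 per list by size of ratio, and 2 nearest genes were named per gene. *Bcl6* was named in addition. The sums over a genotype and the reach of intervals were added after values had been seen. Python 3 with numpy, scipy and pandas was used.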

Additional observations from a re-analysis of the deposited data

Results flagged for a closer look

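The ratio without to with PJ34 lay on opposite sides of 1 in the genotypes at 2 genes. The ratio of *Socs2* was 1.03 among the *Parp14*+/+ libraries and 0.862 among the *Parp14*-/- libraries. That of *Pim2* was 1.06 and 0.952, but its untreated values were read near the start of *Pim2* and its PJ34 values in *Slc35a2*. Each side is 1 pair of libraries, all 4 counting intervals include 1, and the difference was not tested.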

How the results depend on the processing

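The count of the 6 genes past the thresholds was recomputed under 12 alternatives. In untreated cells it was 3, and 0 when the covered length of the gene replaced height, 1 with at least 50 summed height, and 1 when the 95% interval of the ratio also had to exclude 1 (chosen after seeing the data). It was 2 with a pseudocount of 1, with 22 as the height limit and with an interval summit of at least 20. With PJ34 the 4 genes became 0, 2 and 1 under the first 3 of these, 3 with the height limit of 22, 3 without *Pim2* (also chosen after seeing the data) and 5 with scaled libraries. The single gene past the thresholds between *Parp14*+/+ and *Parp14*+/+ + PJ34 became 0 with covered length. With covered length, *Cish*, *Socs1*, *Socs3* and *Pim1* could not pass, being wholly covered in all 4 libraries. Between the *Parp14*-/- libraries the count of 0 became 1 with the highest point in the tracks and 2 with libraries scaled to a median ratio of 1. Over all 8551 genes, the 2823, 3109, 2445 and 2292 past the thresholds in the pairs in the order of the report ranged from 249 to 4487, 274 to 4500, 129 to 4059 and 130 to 3698 over the alternatives. The ratios of single genes stayed within their counting intervals in 72 of 72 recalculations. These used the highest point in the tracks, a pseudocount of 1 or scaled libraries, and not covered length. At genes with 1 active region that highest point gave the same ratios, and the scale factors were 0.978 to 1.1. The outcome was thus close to fixed in advance and is no evidence of stability. No paired analysis was possible because each condition has 1 library, so no replicate could be left out either. Low heights limit *Socs2* and *Pim2* most.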

Other observations

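Besides *Cish* and *Socs2*, 28 genes with a tandem pair of TTCNNNGAA matches in the promoter window had an interval in any library. Their median *Parp14*+/+ to *Parp14*-/- ratio was 0.879, with 18 below 1 and 8 above, and 8 passed the thresholds toward *Parp14*-/- and 3 toward *Parp14*+/+, where 15.0% and 18.0% of all genes did and their median was 1.00. With PJ34 the median was 1.08, with 8 below 1 and 16 above, and 3 passed toward *Parp14*-/- + PJ34 and 5 toward *Parp14*+/+ + PJ34. Of all genes, 8.64% passed toward *Parp14*-/- + PJ34 and 36.4% in either direction, so most went toward *Parp14*+/+ + PJ34. Their median was 1.14. The group of 28 genes was formed after the values had been seen.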
